A study of Homo sapiens with 4 samples.

Results

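Collagens and the enzymes that mature and cross-link them were examined as a family of 60 genes among 60766 features, in HCT116 cells with and without knockdown of ARID1A. The members were chosen by symbol: 44 collagen chains, the prolyl and lysyl hydroxylases P4HA1 to P4HA3 and PLOD1 to PLOD3, and the prolyl 3-hydroxylase genes P3H1 and P3H2 with their partner CRTAP. The lysyl oxidases LOX and LOXL1 to LOXL4 and the secreted partners CTHRC1 and SPARC completed the family. HCT116 is an established human colon carcinoma line. RNA was sequenced from 2 ARID1A knockdown libraries, made from cells carrying a short hairpin RNA against ARID1A, and from 2 control libraries, for which the labels name no hairpin. Whether the knockdown line was a clone or a pool, and whether replicates came from separate cultures, is not stated in the labels. The p-values therefore rest on a spread between libraries that may be technical only.

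A collagen chain folds with others of its kind into a triple helix inside the endoplasmic reticulum. Prolyl 4-hydroxylation stabilizes the helix, lysyl hydroxylation prepares the lysines that later form cross-links, and lysyl oxidases start those cross-links once the collagen is secreted. Fibroblasts make most collagen of the gut wall, while epithelial cells contribute mainly basement membrane, membrane-spanning and some fibril-associated chains.

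Levels are in FPKM, fragment counts scaled for transcript length and library size. Whole-fragment spacing among low values put the library totals near 75750000 and 75250000 fragments (knockdown) and 69000000 and 71000000 fragments (control). At that depth 1 FPKM over 2 kb rests on about 138 to 152 fragments, without the correction for fragment length, and 1 fragment over 5 kb gives 0.00264 to 0.00290 FPKM. ARID1A, which encodes a DNA-binding subunit of the BAF chromatin remodeller, was at 7.05 and 6.13 FPKM in the knockdown libraries, against 11.1 and 11.4 FPKM in the controls (log2 change -0.69, SE 0.08, limma adjusted p = 0.00438). By exact permutation of the libraries (two-sided) p was 0.333, the lowest value possible with 2 against 2. Of the colon epithelial markers, high levels were found for EPCAM, KRT8, KRT18 and KRT19, of which the lowest value in any library was 140.8 FPKM (EPCAM), while CDX1 was listed at 0 and VIL1 (at most 0.208 FPKM) and CDH17 (at most 0.163 FPKM) were near 0, against that label. Of 7 tested epithelial markers of 10, 4 rose and 1, EPCAM, fell (147 and 140.8 FPKM in the knockdown libraries, against 312 and 312 FPKM in the controls). KRT20 rose most, with means of 13.9 FPKM in the knockdown libraries and 2.21 FPKM in the controls (log2 change 2.22, limma adjusted p = 3.95e-04). Of the fibroblast markers, DCN, LUM, PDGFRA and FAP were listed at or near 0 (at most 0.017 FPKM) in every library. The list of 8 summed to 15.7 and 16.7 FPKM in the knockdown libraries and 11.9 and 13.2 FPKM in the controls, nearly all of it ACTA2, which rose to 14.8 ± 0.90 FPKM in the knockdown libraries, against 10.8 ± 0.32 FPKM in the controls (SD, n = 2 each; limma adjusted p = 0.00862, and 0.0563 without control replicate 1). Without ACTA2 the list summed to 1.58 and 1.31 FPKM in the knockdown libraries and 1.38 and 2.21 FPKM in the controls. Endothelial markers summed to at most 0.397 FPKM in any library. Leukocyte markers summed to 3.31 and 3.93 FPKM in the knockdown libraries and 7.77 and 6.26 FPKM in the controls, most of it CD68 (2.55 and 3.39 FPKM in the knockdown libraries, 6.58 and 5.25 FPKM in the controls), with CD3E and TYROBP listed at 0. The part of these markers in the results below was not tested.

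Most expressed members were lower after knockdown. The test was limma on log2(FPKM + 1) over all 13605 features with a mean of at least 1 FPKM, called at a Benjamini-Hochberg adjusted p of 0.05. Of the 60 members, 28 passed the filter on level, and of these 17 fell, 1 rose and 10 did not pass. Of all tested features 18.9% were called lower and 18.2% were called higher, or 37.1% in either direction. The median log2 change was -0.50 over the 28 tested members and -0.003 over all tested features. Of the 28, 24 had a mean of at least 1 FPKM in each group; SPARC, COL16A1 and P4HA3 passed the filter only through the controls and LOXL3 only through the knockdown libraries. Both knockdown values lay below both control values for 20 tested members, above for 5 and overlapped for 3, where 36.5% of all tested features lay below and 35.8% above, or 72.3% apart in either direction. A fall of at least 1.5-fold together with a call was met by 12 members, and by 5.88% of all tested features. In bulk RNA, fewer cells of a type and less RNA per cell cannot be told apart.

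**Figure D1:**
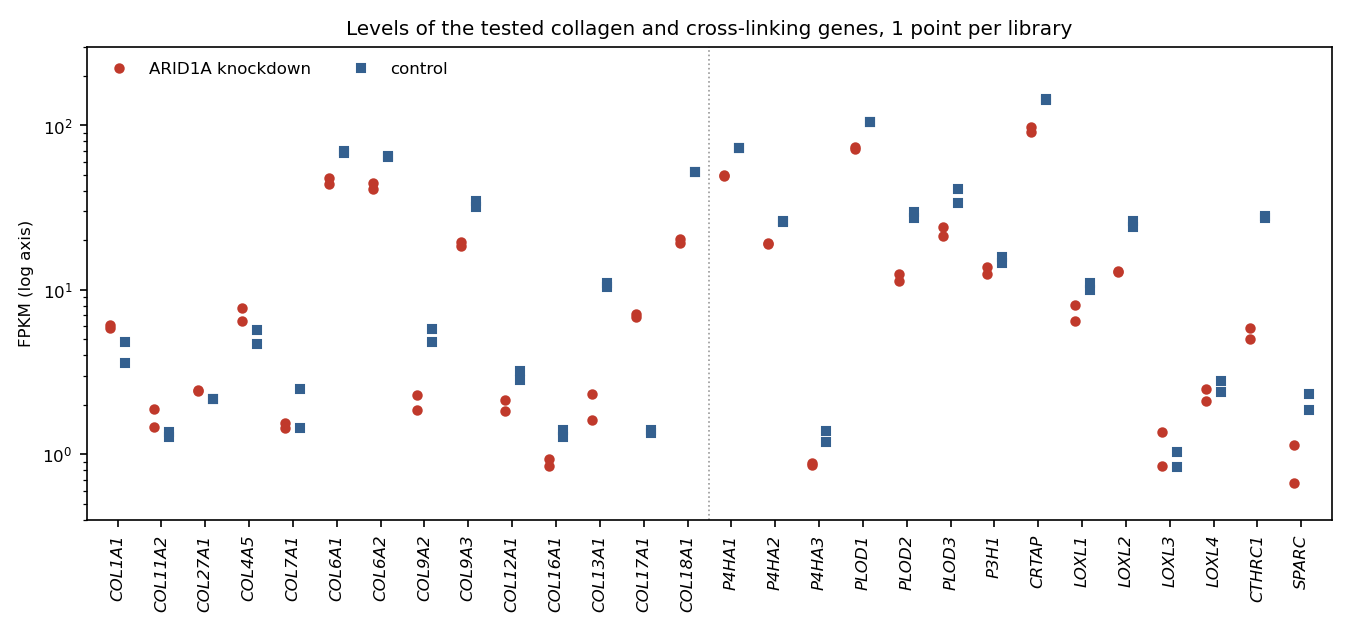
FPKM on a log axis of the 28 tested members, with ARID1A knockdown libraries as red circles and control libraries as blue squares, 1 point per library; the dotted line separates the 14 collagen chains from the other genes. COL17A1 is the collagen whose knockdown points sit far above the control points, while COL13A1, COL18A1, PLOD2, LOXL2 and CTHRC1 sit well below them.

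**Figure D2:**
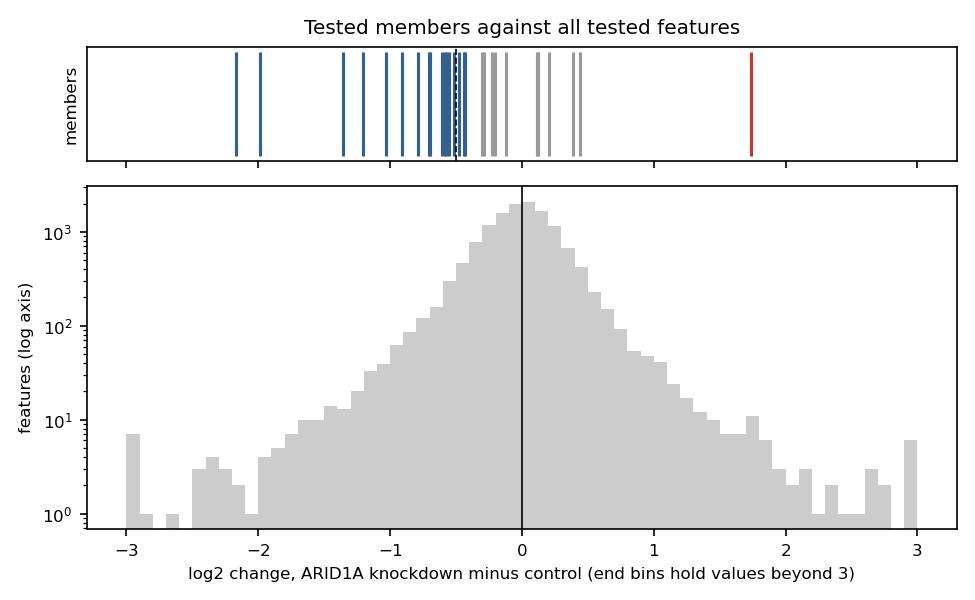
Log2 changes of the 28 tested members as ticks (upper panel; red higher, blue lower, grey did not pass; dashed line the member median of -0.50) above the histogram of all 13605 tested features on a log count axis (lower panel; line at the median). The members' ticks lie mostly left of 0, with COL17A1 alone beyond 1 on the right.

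The regions before the RefSeq start of 4 members are shown because these genes carried the largest changes for which sequence can be given: the single collagen that rose, the membrane collagen and the multiplexin that fell most, and the lysyl hydroxylase that fell most. Sequences are from RefSeq on GRCh38.p14, 5′ to 3′ on the gene's strand, from 250 bases before the annotated start up to the first base that GENCODE release 29 places in an exon. Capitals mark matches, on either strand, to TATAAA, to the GC box GGGCGG or to the hypoxia response core ACGTG.
COL17A1, chr10:104085958-104086130, minus strand: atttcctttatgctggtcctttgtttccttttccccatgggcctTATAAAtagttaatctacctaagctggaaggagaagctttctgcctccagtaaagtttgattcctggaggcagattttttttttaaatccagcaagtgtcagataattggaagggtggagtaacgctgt
COL13A1, chr10:69801656-69801866, plus strand: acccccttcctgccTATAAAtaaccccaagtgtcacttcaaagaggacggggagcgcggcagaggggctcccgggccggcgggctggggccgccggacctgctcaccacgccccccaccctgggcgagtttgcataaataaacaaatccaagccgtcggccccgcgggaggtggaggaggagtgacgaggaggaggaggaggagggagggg
COL18A1, chr21:45404915-45405136, plus strand: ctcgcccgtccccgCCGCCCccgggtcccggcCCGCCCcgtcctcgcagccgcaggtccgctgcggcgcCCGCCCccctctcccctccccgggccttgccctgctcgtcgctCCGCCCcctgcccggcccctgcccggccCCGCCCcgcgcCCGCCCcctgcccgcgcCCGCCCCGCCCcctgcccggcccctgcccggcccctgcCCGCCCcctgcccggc
PLOD2, chr3:146161185-146161434, minus strand: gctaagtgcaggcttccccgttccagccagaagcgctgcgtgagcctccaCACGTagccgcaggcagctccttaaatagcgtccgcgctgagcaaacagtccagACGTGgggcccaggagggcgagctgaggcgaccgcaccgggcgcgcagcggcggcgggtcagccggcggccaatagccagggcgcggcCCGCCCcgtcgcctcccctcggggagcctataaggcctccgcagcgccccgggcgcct
The 250 bases before the start were 40.4% G or C for COL17A1, against 64.0% for COL13A1, 72.4% for PLOD2 and 88.4% for COL18A1. COL18A1 held 9 GC boxes, and neither COL13A1, which fell, nor COL17A1, which rose, held any. PLOD2 held 2 copies of ACGTG and 1 GC box. The RefSeq start of PLOD2 lies 2469 bases inside the 5′ end of the locus in the files, so its sequence comes from within the measured locus. RefSeq gave such a window for 45 of the 60 members, among them 13 of the 17 that fell. Motifs were counted over the whole 250 bases, annotated exon bases included. For LOXL1, P4HA2, PLOD3 and SPARC all 250 bases lay in annotated exons. The RefSeq start of P4HA2 lay 68224 bases inside its measured locus, and those of PLOD3, COL9A2, PLOD1 and LOXL1 lay 473 to 839 bases inside theirs. ACGTG was in 3 of those 13 windows (PLOD2, COL12A1 and P4HA1, where it lay in an annotated exon) and in 18.5% of all 35116 windows. The GC box was in 8 of the 13 and in 42.6% of all. TATAAA was in 3 of the 13 and in 10.7% of all, and GGAATG, the core bound by TEAD factors, in 2 of the 13 and in 11.9%. The AP-1 motif TGANTCA, the grainyhead motif AACCGGTT and the C/EBP-ATF motif TGATGNAA were found in 0 of the 45 member windows, and in 6.57%, 0.117% and 3.14% of all windows.

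Among the collagen chains, the membrane-spanning ones moved furthest, in opposite directions. COL17A1 encodes the hemidesmosomal collagen XVII, which anchors basal epithelial cells to the basement membrane. It lies on GRCh38 chromosome 10 from 104031286 to 104085880 and was at 7.09 and 6.81 FPKM in the knockdown libraries, against 1.36 and 1.41 FPKM in the controls. Both knockdown values stood above both controls, 5.02-fold by the means (log2 change 1.74, SE 0.08, limma adjusted p = 4.78e-04). Only 0.287% of all tested features rose more on the log2 scale. COL13A1 encodes collagen XIII, a membrane collagen of cell-matrix adhesions, also on chromosome 10 (69801867 to 69964275). It was at 1.63 and 2.34 FPKM in the knockdown libraries, against 11.1 and 10.4 FPKM in the controls, 5.41-fold lower (log2 change -1.99, SE 0.13, adjusted p = 0.00128). The ratio of COL17A1 to COL13A1 was 4.36 and 2.91 in the knockdown libraries and 0.122 and 0.136 in the controls, so the order of these 2 genes was inverted. COL25A1 was between 0.0994 and 0.408 FPKM and COL23A1 at most 0.0071 FPKM in any library, both under the filter.

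The rise of COL17A1 had company among its neighbours on chromosome 10, a comparison chosen after the values were seen. Over all tested features 18.2% were called higher and 18.9% lower. Of 9 other tested features within 500 kb of COL17A1, 4 rose, 1 fell and 4 did not pass. On its telomeric side, SFR1, a partner of recombination factors, was at 40.8 ± 0.18 FPKM in the knockdown libraries and 19.1 ± 1.12 FPKM in the controls (SD, n = 2 each). On the other side, the kinase gene SLK was at 24.5 ± 0.48 FPKM in the knockdown libraries and 13.2 ± 0.08 FPKM in the controls, and STN1, a telomere maintenance gene, at 90.6 ± 2.05 FPKM in knockdown and 41.5 ± 1.56 FPKM in control. These 3 genes were 2.14-fold, 1.86-fold and 2.19-fold higher in knockdown (limma adjusted p = 6.81e-04, 7.35e-04 and 4.01e-04), where 4.59% of all tested features were called and at least 1.5-fold higher. The glutathione transferase gene GSTO1 rose 1.27-fold. ITPRIP, at 3.03 ± 0.01 FPKM in the knockdown libraries and 6.96 ± 0.52 FPKM in the controls, fell. CFAP43, SH3PXD2A, NEURL1 and GSTO2 did not pass. The part of the neighbourhood in the rise of COL17A1 was not tested.

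**Figure D3:**
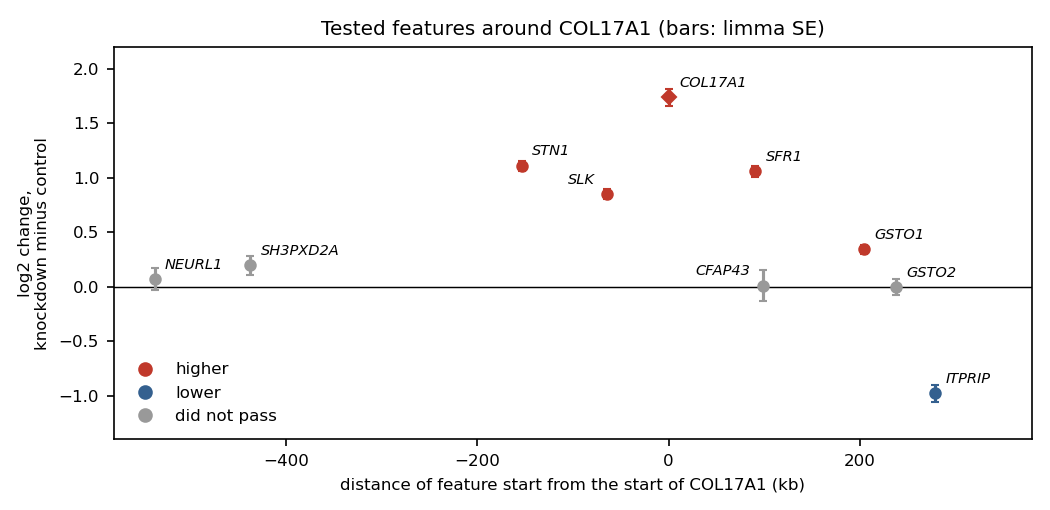
Log2 change, knockdown minus control, of the 10 tested features around COL17A1 (diamond) by the distance of their starts from its start in kb; bars are limma SEs, red features rose, blue fell and grey did not pass. STN1, SLK and SFR1 sit between 0.85 and 1.11, CFAP43, which starts nearer than STN1, sits at 0.01, and ITPRIP sits at -0.98.

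Of the chains found in basement membranes, the multiplexin COL18A1 fell and no collagen IV chain passed. COL18A1 encodes collagen XVIII, a heparan sulfate proteoglycan of basement membranes whose end fragment is endostatin. It was at 19.2 and 20.3 FPKM in the knockdown libraries, against 52.2 and 52.2 FPKM in the controls, with groups far apart. This was 2.64-fold lower (log2 change -1.36, SE 0.05, limma adjusted p = 3.63e-04), and 0.573% of all tested features fell more. COL18A1 (chromosome 21, 45405165 to 45513720) overlaps SLC19A1, which was at 14.3 and 14.2 FPKM by group means. COL4A5, the X-linked chain of the epithelial collagen IV network, was at 7.78 and 6.47 FPKM in the knockdown libraries, against 4.71 and 5.74 FPKM in the controls. The groups did not overlap, but the gene did not pass (log2 change 0.38, SE 0.12, adjusted p = 0.0650). Its head-to-head neighbour COL4A6 was at 1.08 and 0.857 FPKM in the knockdown libraries and 0.457 and 0.416 FPKM in the controls, under the filter. With a filter of 0.1 FPKM it was called higher (log2 change 0.45, adjusted p = 0.0378). COL4A3 and COL4A4, a head-to-head pair on chromosome 2 that partners COL4A5, were between 0.658 and 1.09 FPKM in every library. For COL4A4 both knockdown values (0.785 and 0.658 FPKM) lay below both controls (1.04 and 1.09 FPKM), while COL4A3 overlapped. The broadly used chains COL4A1 and COL4A2 were at most 0.249 FPKM. COL7A1, which forms the anchoring fibrils of stratified epithelia, was at 1.45 and 1.56 FPKM in the knockdown libraries and at 2.50 and 1.45 FPKM in the controls. Control replicate 1 alone was high, and the gene did not pass (adjusted p = 0.397).

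Collagen VI, which forms beaded filaments near cell surfaces, fell in both of its expressed chains (18.9% of all tested features were called lower). COL6A1 was at 44.3 and 48.0 FPKM in the knockdown libraries, against 70.3 and 67.7 FPKM in the controls (log2 change -0.57, SE 0.05, limma adjusted p = 0.00274). COL6A2 was at 41.1 and 44.5 FPKM in the knockdown libraries, against 64.2 and 65.4 FPKM in the controls (log2 change -0.59, SE 0.05, adjusted p = 0.00229). The 2 genes lie side by side on chromosome 21 (45981769 to 46005050 and 46098112 to 46132848), and their ratio stayed between 1.04 and 1.10 in all 4 libraries. COL6A3, the third chain of the usual heterotrimer, was far lower, at 0.0818 and 0.240 FPKM in the knockdown libraries and 0.164 and 0.0681 FPKM in the controls. COL6A6 was at most 0.0098 FPKM and COL6A5 was listed at 0 throughout.

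**Figure D4:**
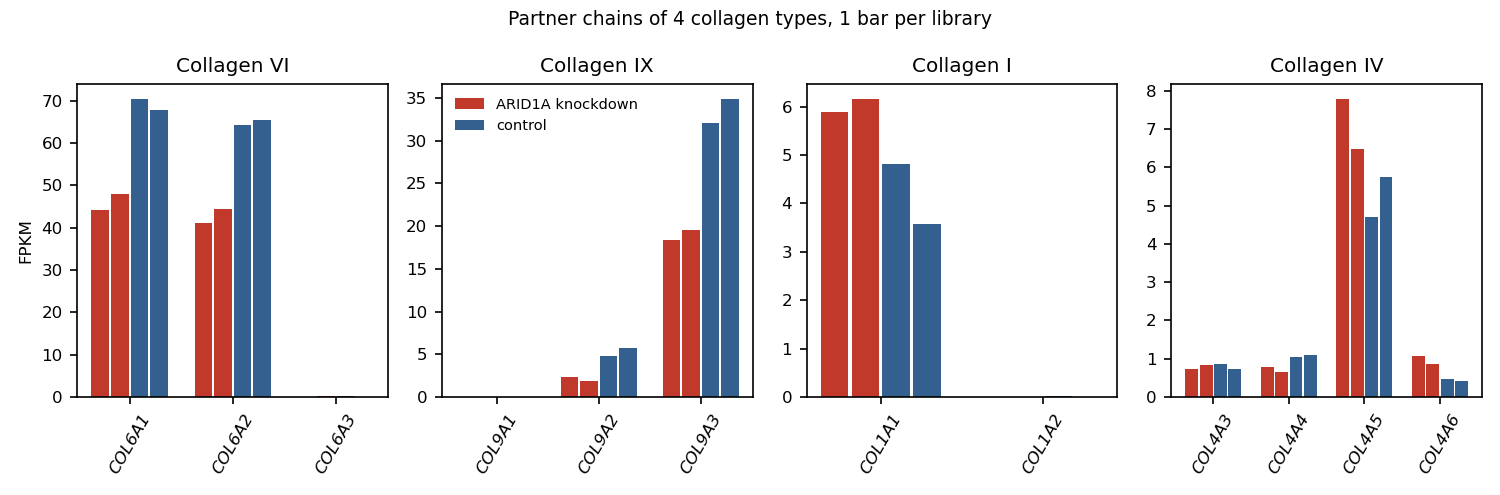
FPKM of partner chains of collagens VI, IX, I and IV, 1 bar per library from 0, with ARID1A knockdown in red and control in blue; each panel has its own scale. In collagens VI, IX and I a chain of the usual heterotrimer is at or near 0 (COL6A3, COL9A1, COL1A2), and COL4A5 is the highest of the collagen IV chains shown.

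Of 4 tested fibril-associated collagens, which sit on the surface of fibrils, 3 fell and 1 did not pass (18.9% of all tested features were called lower). COL9A3 was at 18.4 and 19.5 FPKM in the knockdown libraries, against 32.0 and 34.8 FPKM in the controls, 1.77-fold lower (limma adjusted p = 0.00174). COL9A2 was at 2.30 and 1.86 FPKM in the knockdown libraries, against 4.81 and 5.78 FPKM in the controls, 2.54-fold lower (adjusted p = 0.00497). The groups were apart for both chains of collagen IX, and COL9A1, the third chain, was listed at 0 in every library. COL12A1, of collagen XII, was at 1.84 and 2.14 FPKM in the knockdown libraries, against 3.23 and 2.85 FPKM in the controls (log2 change -0.44, SE 0.10, adjusted p = 0.0314). That call was lost without control replicate 1 (adjusted p = 0.130) or 2 (0.0770), without knockdown replicate 1 (0.106) or 2 (0.0555), with replicate numbers as a block (0.0621) and with no filter (0.119). COL16A1 was at 0.943 and 0.847 FPKM in the knockdown libraries and 1.41 and 1.27 FPKM in the controls, without a call (adjusted p = 0.0987). The other 6, COL14A1, COL19A1, COL20A1, COL21A1, COL22A1 and COL9A1, were under 0.2 FPKM in every library.

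Fibrillar collagens gave no call. COL1A1, the main chain of collagen I, was at 5.89 and 6.15 FPKM in the knockdown libraries, against 4.81 and 3.58 FPKM in the controls. Both knockdown values were higher, but the controls were spread and the gene missed the threshold (log2 change 0.44, SE 0.13, limma adjusted p = 0.0518). It was called without control replicate 1 (adjusted p = 0.0321) and under each of the 3 other scalings (0.0354 to 0.0459). Its partner COL1A2 was at 0 and 0.0031 FPKM in the knockdown libraries and 0.0136 and 0 FPKM in the controls, a level of at most a few fragments. COL27A1 was at 2.43 and 2.46 FPKM in the knockdown libraries and 2.16 and 2.19 FPKM in the controls (adjusted p = 0.319). COL11A2 was at 1.88 and 1.47 FPKM in the knockdown libraries and 1.36 and 1.28 FPKM in the controls (adjusted p = 0.257). The remaining 7 fibrillar chains, among them COL3A1 and COL5A1, reached at most 0.503 FPKM (COL5A2).

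**Figure D5:**
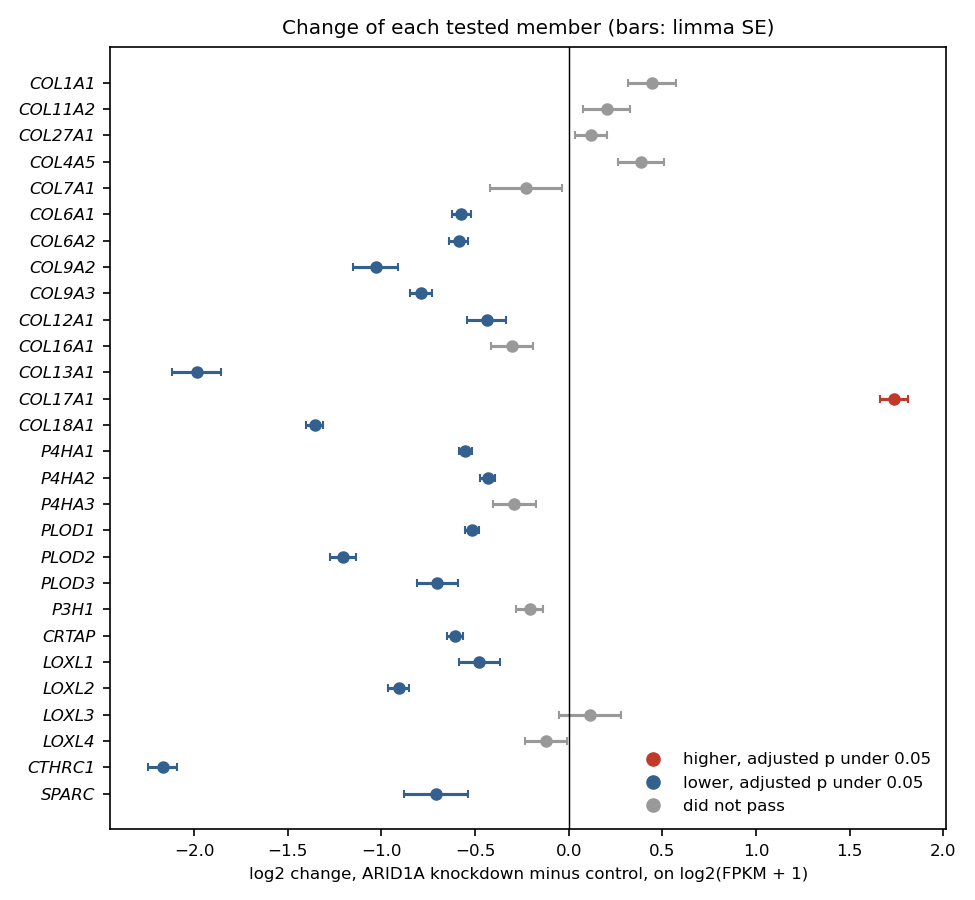
Log2 change, ARID1A knockdown minus control on log2(FPKM + 1), of the 28 tested members in order of role, with limma SEs as bars; red passed upward, blue passed downward and grey did not pass. Below the collagens, all 8 points of the hydroxylation genes lie left of 0, with PLOD2 the lowest of these 8 at -1.21, and the lysyl oxidases split between LOXL1 and LOXL2 on the left and LOXL3 and LOXL4 near 0.

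The hydroxylation machinery held the highest levels of the family and fell broadly. Of 8 tested genes 6 fell and 2 did not pass, where 18.9% of all tested features were called lower. CRTAP, the cartilage-associated protein that holds the prolyl 3-hydroxylase complex together, was at 91.8 and 97.8 FPKM in the knockdown libraries, against 146 and 144 FPKM in the controls (log2 change -0.61, SE 0.04, limma adjusted p = 0.00147). Its enzyme P3H1 was at 12.5 and 13.8 FPKM in the knockdown libraries and 15.9 and 14.6 FPKM in the controls, without a call (adjusted p = 0.0819). P4HA1, the main catalytic subunit of prolyl 4-hydroxylase and a known hypoxia-responsive gene, was at 49.8 and 49.0 FPKM in the knockdown libraries, against 72.6 and 73.2 FPKM in the controls (log2 change -0.55, SE 0.03, adjusted p = 0.00117). The replicates of this gene lay close together and the groups far apart. The sister subunit P4HA2 was at 19.3 and 18.98 FPKM in the knockdown libraries, against 26.3 and 26.0 FPKM in the controls (log2 change -0.43, SE 0.04, adjusted p = 0.00284). P4HA3 averaged 0.872 ± 0.012 FPKM in the knockdown libraries and 1.29 ± 0.13 FPKM in the controls (SD, n = 2 each), without a call (adjusted p = 0.112). It overlaps PPME1 by 18903 bases, a far higher gene that rose (55.7 FPKM in the knockdown libraries and 48.6 FPKM in the controls by group means). P3H2 was between 0.312 and 0.907 FPKM and its groups overlapped.

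All 3 lysyl hydroxylases fell, and unequally, where 18.9% of all tested features were called lower. PLOD2 hydroxylates the telopeptide lysines from which stable pyridinoline cross-links form. It was at 11.3 and 12.4 FPKM in the knockdown libraries, against 27.4 and 29.9 FPKM in the controls, 2.42-fold lower (log2 change -1.21, SE 0.07, limma adjusted p = 9.89e-04). PLOD1, which acts mainly on helical lysines, was at 72.2 and 74.4 FPKM in the knockdown libraries, against 106 and 105 FPKM in the controls (log2 change -0.52, SE 0.04, adjusted p = 0.00139). PLOD3, which also carries glycosyltransferase activity, was at 24.0 and 21.3 FPKM in the knockdown libraries, against 41.3 and 33.9 FPKM in the controls (log2 change -0.70, SE 0.11, adjusted p = 0.0106). The controls were the more spread group for PLOD3, and its call was lost with no filter (adjusted p = 0.0652). It overlaps ZNHIT1 by 256 bases, a gene that rose. The ratio of PLOD1 to PLOD2 was 6.37 and 5.99 in the knockdown libraries and 3.85 and 3.50 in the controls.

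Among the lysyl oxidases, 2 of 4 tested genes fell, where 18.9% of all tested features were called lower. LOXL2, which oxidizes lysines of collagen IV and is linked to invasive carcinoma, lies on chromosome 8 (23296897 to 23425328). It was at 13.1 and 12.8 FPKM in the knockdown libraries, against 26.3 and 24.2 FPKM in the controls, 1.95-fold lower (log2 change -0.91, SE 0.06, limma adjusted p = 0.00112). The overlapping gene ENTPD4 was at 17.5 and 17.3 FPKM by group means. LOXL1, best known for elastic fibres, was at 8.05 and 6.51 FPKM in the knockdown libraries, against 10.98 and 9.98 FPKM in the controls (log2 change -0.48, SE 0.11, adjusted p = 0.0278). That call was lost without control replicate 1 (adjusted p = 0.125) or 2 (0.0793), without knockdown replicate 2 (0.0622) and with no filter (0.114), and the overlapping antisense feature LOXL1-AS1 also fell. LOXL4 was at 2.10 and 2.51 FPKM in the knockdown libraries and 2.40 and 2.79 FPKM in the controls, with overlapping groups (adjusted p = 0.432). LOXL3 was at 1.36 and 0.846 FPKM in the knockdown libraries and 1.03 and 0.833 FPKM in the controls (adjusted p = 0.622), and it overlaps DOK1 and HTRA2, which did not pass. LOX itself was between 0.0989 and 0.149 FPKM in every library. LOXL2 was thus the highest of the 5 in every library, and its ratio to LOXL1 was 1.63 and 1.97 in the knockdown libraries and 2.39 and 2.42 in the controls.

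Both secreted partners fell, where 18.9% of all tested features were called lower. CTHRC1, a triple-helix repeat protein that modulates matrix deposition and WNT signalling, was at 5.85 and 5.00 FPKM in the knockdown libraries, against 28.1 and 27.4 FPKM in the controls. This was the largest fall of the family on the log2(FPKM + 1) scale (log2 change -2.17, SE 0.08, limma adjusted p = 3.63e-04), and 0.147% of all tested features fell more. By the means CTHRC1 was 5.12-fold lower, where COL13A1 was 5.41-fold lower. SPARC, a collagen-binding matricellular protein, was at 0.666 and 1.14 FPKM in the knockdown libraries, against 1.87 and 2.32 FPKM in the controls. The groups did not overlap (log2 change -0.71, SE 0.17, adjusted p = 0.0312), but SPARC passed the filter through its control level. Its call was lost without control replicate 1 (adjusted p = 0.0820) or 2 (0.137), without knockdown replicate 1 (0.0802) and with no filter (0.119).

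Ordered by level, 13 members had a mean of at least 10 FPKM over the 4 libraries, 4 of them collagen chains (COL6A1, COL6A2, COL18A1 and COL9A3). Of these 13, 12 fell and P3H1 did not pass. Of all tested features 18.9% were called lower, and 21.8% at a filter of 5 FPKM. No such share was computed for features of at least 10 FPKM. Summed over all 44 collagen chains, the level was 161 and 169 FPKM in the knockdown libraries and 260.4 and 260.5 FPKM in the controls. For the 16 other members the sums were 314 and 318 FPKM in the knockdown libraries, against 508 and 496 FPKM in the controls. The 32 members under the filter included 17 below 0.1 FPKM in every library, of which COL6A5, COL9A1 and COL22A1 were listed at 0 throughout. Only 6 of the 32 reached 0.5 FPKM in any library. COL26A1 was between 0.353 and 0.700 FPKM, COL15A1 between 0.0482 and 0.0653 FPKM and COL28A1 at most 0.0762 FPKM.

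Genes that act beside the family were read from lists, and several of their calls were lost when a library was left out. Calls over all tested features also became fewer then. In the fit on all libraries, 18.2% of all tested features were called higher and 18.9% lower. Those shares belong beside the list counts here and in the paragraphs that follow. Of 9 tested genes for other steps of collagen folding and modification, 6 fell and 3 did not pass. TGM2, a transglutaminase that cross-links matrix proteins, averaged 4.51 ± 0.22 FPKM in the knockdown libraries and 9.66 ± 0.33 FPKM in the controls (SD, n = 2 each; limma adjusted p = 0.00138). P3H3 averaged 7.42 ± 0.36 FPKM in the knockdown libraries and 10.6 ± 0.52 FPKM in the controls, and P3H4, a scaffold of lysyl hydroxylation, 15.6 ± 0.09 FPKM in knockdown and 19.6 ± 0.12 FPKM in control (adjusted p = 0.00808 and 0.00685). Without control replicate 1 only TGM2 of this list was called, and without control replicate 2 there were 3 calls. Of 12 tested procollagen export genes, 6 rose and 1 fell in the fit on all libraries. Fewer of the 12 were called whichever library was left out, as was so over all tested features. SEC24D, a COPII coat subunit needed for procollagen export, averaged 12.2 ± 0.97 FPKM in the knockdown libraries and 8.22 ± 0.28 FPKM in the controls (adjusted p = 0.00764; 0.0506 without control replicate 2). SAR1B averaged 20.03 ± 0.52 FPKM in knockdown and 15.9 ± 0.83 FPKM in control (adjusted p = 0.0138), with no call when control replicate 1 (0.0684) or knockdown replicate 2 (0.0566) was dropped. KLHL12, at 18.7 ± 1.01 FPKM in knockdown and 22.1 ± 0.49 FPKM in control, was the gene that fell (adjusted p = 0.0311), with adjusted p of 0.0967 to 0.136 when either control or knockdown replicate 2 was dropped.

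Of 6 tested procollagen processing genes, 3 fell in the fit on all libraries: ADAMTS2, ADAMTS14 and BMP1, which trim procollagen ends. ADAMTS2 averaged 1.09 ± 0.04 FPKM in the knockdown libraries and 2.09 ± 0.22 FPKM in the controls (limma adjusted p = 0.0179). All 3 calls were lost whichever library was left out (adjusted p of 0.0528 to 0.0874 for ADAMTS2, 0.0690 to 0.119 for ADAMTS14 and 0.0637 to 0.168 for BMP1). The 4 tested collagen receptors all fell. MRC2, which takes up collagen for degradation, averaged 6.05 ± 0.37 FPKM in the knockdown libraries and 10.1 ± 1.25 FPKM in the controls, and the collagen-activated kinase DDR1 108 ± 2.37 FPKM in knockdown and 149.8 ± 10.4 FPKM in control (SD, n = 2 each; adjusted p = 0.00918 and 0.00557). The integrin gene ITGB1 averaged 160.5 ± 5.40 FPKM in knockdown and 194 ± 2.85 FPKM in control (adjusted p = 0.0082), without a call when control replicate 1 (0.0654) or 2 (0.0554) was left out. Of the 4 receptors, 2 were called without control replicate 1 or control replicate 2.

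The hemidesmosome genes that partner collagen XVII were divided: of 7 tested, 3 rose, 1 fell and 3 did not pass. ITGB4, the integrin that binds collagen XVII, averaged 218 ± 9.11 FPKM in the knockdown libraries and 109 ± 0.82 FPKM in the controls (SD, n = 2 each; limma adjusted p = 4.70e-04). LAMB3, a laminin-332 chain, averaged 18.9 ± 0.78 FPKM in knockdown and 12.3 ± 0.30 FPKM in control, and the linker gene PLEC 28.99 ± 0.04 FPKM in knockdown and 22.7 ± 0.22 FPKM in control (adjusted p = 0.00269 and 0.00472). These 3 were called whichever library was left out. CD151 was the gene that fell, at 156 and 165 FPKM in the knockdown libraries and 178 and 179.9 FPKM in the controls (adjusted p = 0.0377), and it was called only when knockdown replicate 2 was the library left out. ITGA6 and DST, which complete the structure, did not pass. Of 3 tested matrix partners, the fibronectin gene FN1 fell (1.96 ± 0.09 FPKM in the knockdown libraries and 2.85 ± 0.30 FPKM in the controls, adjusted p = 0.0402), a call lost whichever library was left out (0.0753 to 0.152).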

How the data were processed

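RNA-seq of 2 ARID1A knockdown and 2 control HCT116 libraries was analysed, prepared with the NEBNext Ultra chemistry, per the labels' protocols. The authors deposited FPKM values, per the file headers, and the submitters' processing notes name STAR, Cufflinks and GRCh38. Tool versions and the strand setting are not given in those sources. Reads from stretches that a gene shares with an overlapping or antisense partner may therefore not be separable. The loci of 7 of the 28 tested members overlap another tested feature, counted over whole gene spans with introns included.

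Of 60811 rows, 45 second copies of pseudoautosomal genes were dropped, and 2347 values under 1e-09 were set to 0. Printed starts are 1-based. FPKM values are not counts, so limma 3.58.1 (R 4.3.3; lmFit, eBayes with trend) was fitted to log2(FPKM + 1), knockdown minus control, over 13605 features with a mean of at least 1 FPKM. That scale understates changes of low genes. The fit was first run on simulated data with far fewer changed features than were called here. It was required there only that no changed feature was called with the wrong sign. Totals came from genes with a single long transcript, where 84.0% to 87.1% of low values sat within 0.1 of a whole fragment (20.5% to 20.7% with lengths scrambled). By chi-square per degree of freedom (3.28 between knockdown libraries, 3.63 between controls), replicates differed beyond sampling noise.

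Members, lists and tests were chosen with earlier results of these data known. Values in every library were set for called members with an absolute log2 change of at least 0.5 and for COL17A1, LOXL2 and CTHRC1, and up to 3 called genes were named per other list; values of further members and neighbours were added after they were seen. Alternatives were other pseudocounts, filters, scalings and moderation, a replicate block, and each library left out.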

Additional observations from a re-analysis of the deposited data

How the results depend on the processing

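Of the 17 members that fell, 17 were called lower under both other pseudocounts, the filter of 0.1 FPKM, each of the 3 other scalings and without the trend, 16 with a mean of at least 1 FPKM required in each group (a filter added after seeing the data; SPARC was not tested), 14 at a filter of 5 FPKM (COL12A1, COL9A2 and SPARC were not tested) and 13 with no filter. Leaving out a library gave 14 to 15. The count of members that rose was 1, and 2 with the filter of 0.1 FPKM (COL4A6 added) or with the median, quantile or non-mitochondrial scaling or the filter in each group (COL1A1 added); it was 1 to 2 when a library was left out. At a filter of 5 FPKM, COL1A1 was called and COL17A1 was not tested. Over all features, 1373 rose and 1413 fell with no filter, and 1057 to 1665 rose and 1037 to 1805 fell when a library was left out. No called value changed sign under any alternative. ARID1A kept its call, with a log2 change of -0.69 and an adjusted p of 0.0121 with a replicate block. The labels do not say whether equal replicate numbers mark pairs. Deviations of equal numbers correlated at -0.00993 over 13605 features, which cannot show how the libraries were prepared. With the replicate block 16 members fell, COL12A1 being lost, and 1 rose, beside 2114 lower and 2012 higher features in all. With 1 library left in an arm, its spread is taken from the other arm. The 32 members under the filter were not tested in the fit as reported.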

Other observations

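Neighbours of other strongly changed members were counted in the same way, within 500 kb on either side, and windows were chosen after the values were seen. Over all tested features 18.2% were called higher and 18.9% lower, which is the background for these counts. Around COL18A1 on chromosome 21, 9 other features were tested, of which 1 rose, 2 fell and 6 did not pass; the 2 that fell were COL6A1 and the noncoding RNA LINC00205, whose limma adjusted p of 0.0422 became 0.105 to 0.167 when either control or knockdown replicate 1 was dropped. Around COL6A1, 11 others were tested, of which 0 rose and 3 fell (COL18A1, COL6A2 and the ribosome maturation gene YBEY). SLC19A1, which overlaps COL18A1 and extends towards COL6A1, and PCBP3, which lies between the 2 collagen genes, did not pass. SLC19A1 averaged 14.3 FPKM in the knockdown libraries and 14.2 FPKM in the controls, and PCBP3 2.74 FPKM in the knockdown libraries and 3.60 FPKM in the controls.

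Around COL13A1, 11 other features were tested, of which 2 rose and 3 fell. The histone variant gene MACROH2A2 averaged 22.1 FPKM in the knockdown libraries and 27.7 FPKM in the controls, a log2 change of -0.31 beside -1.99 for COL13A1 (limma adjusted p = 0.0112, and 0.0700 or 0.0534 without control replicate 1 or 2). Around LOXL2, 13 others were tested, of which 2 rose and 4 fell. Genes of the TNF receptor family there were divided. TNFRSF10B (61.2 FPKM in the knockdown libraries, 77.6 FPKM in the controls) and TNFRSF10D (24.4 and 32.1 FPKM) fell. TNFRSF10C rose (5.04 FPKM in the knockdown libraries, 3.70 FPKM in the controls), and TNFRSF10A did not pass (11.8 and 13.3 FPKM). Around CTHRC1, 7 others were tested, of which 2 rose and 2 fell. Its neighbour FZD6, a WNT receptor gene, averaged 25.0 FPKM in the knockdown libraries and 34.6 FPKM in the controls. Around PLOD2, PLSCR4 fell (3.77 FPKM in the knockdown libraries, 6.03 FPKM in the controls; limma adjusted p = 0.0237, and 0.102 or 0.0993 without control replicate 1 or 2) and PLSCR1 rose (54.5 and 42.2 FPKM).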
